A study of Bos taurus with 16 samples.

Results

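The late sterol synthesis enzymes are 5 genes that act between squalene and cholesterol: SQLE, LSS, CYP51A1, TM7SF2 and DHCR7. Their members were found by gene symbol in GEO's annotation of the Affymetrix bovine GeneChip, which gave 7 of the 24016 probe sets tested and 5 of the 9155 genes named. SQLE, CYP51A1, TM7SF2 and DHCR7 had 1 probe set each. LSS had 3, here numbered 1 to 3 by falling mean signal. Unless another probe set is named, values of LSS are those of its brightest, probe set 1.

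RNA came from theca interna cells of adult cattle, taken from abattoir ovaries, pooled over many follicles and grown without serum for 6 days. Treatments ran for 4 days from day 3. The groups were LH+BMP6 (luteinising hormone at 160 pg/ml with bone morphogenetic protein 6 at 10 ng/ml), BMP6 alone at 10 ng/ml, LH alone at 160 pg/ml, and control cultures that received neither factor. Each group had 4 arrays, 16 in all, and the labels describe 4 runs of the experiment, each on its own batch of ovaries. They do not say array by array that the replicate number marks the run, so arrays of different groups may share a batch. No breed, age in years or genotype is given by the labels. Each array thus averages the cells of many animals, in a primary culture that can hold cells other than theca cells.

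Cholesterol is built from acetyl-CoA by way of mevalonate and squalene, and the steps after squalene close the sterol rings and then trim and reduce them. The genes of this pathway are known as targets of SREBP-2, a transcription factor that is released from the endoplasmic reticulum when membrane sterol is low. Theca cells use cholesterol, made in the cell or taken up from lipoproteins, as the substrate for androgen synthesis.

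On these arrays all 5 enzymes were lower wherever BMP6 was present. With LH+BMP6 against LH the falls ran from 2.71-fold for LSS to 6.77-fold for TM7SF2, and with BMP6 against control from 1.84-fold for CYP51A1 to 2.69-fold for TM7SF2 (n = 4 arrays in each group). LH alone gave higher mean values for all 5 genes than control, by 1.36-fold for LSS to 2.70-fold for TM7SF2, but 0 of 5 passed the test across all probe sets. Mean signals were in the order BMP6, LH+BMP6, control and LH from low to high for 4 of the 5 genes. For CYP51A1 the LH+BMP6 mean was the lowest, and the 2 groups that held BMP6 did not differ beyond their spread for any of the 5.

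Values are log2 signals made by robust multi-array averaging, so that a difference of 1 is a 2-fold difference. Levels of different probe sets are not set against each other, because each probe set has its own brightness. Tests are limma's moderated test over all 16 arrays, a change is given on the log2 scale ± its standard error, and a probe set is called when its Benjamini-Hochberg adjusted p over 24016 probe sets is under 0.05. Comparisons that use the same control or LH arrays are not independent of each other. In RNA from whole cultures, fewer theca cells and less transcript per theca cell cannot be told apart.

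Some facts of the arrays bear on the results. Spiked hybridisation controls, RNAs added before hybridisation, had a mean log2 signal of 8.66 to 8.71 on 3 arrays (LH replicate 1 and control replicates 1 and 3) and of 9.84 to 10.17 on the 13 others. The 3 prime minus 5 prime signal of actin, a sign of RNA quality, was 1.39 to 2.00 with LH+BMP6, 1.56 to 2.21 with BMP6, 1.91 to 2.31 with LH and 1.69 to 2.49 in control. Of 7 theca markers 7 fell with LH+BMP6 against LH and 6 fell with BMP6 against control. Called lower in these comparisons were 10.3% and 9.95% of all probe sets. INSL3, the peptide hormone of theca cells, marked the cultures without BMP6 at 14.07 ± 0.07 with LH and 14.08 ± 0.19 in control (SD, n = 4). It stood at 8.88 ± 1.12 with LH+BMP6 and 8.38 ± 1.45 with BMP6. Granulosa cell markers (4 measured) had array means of 4.22 to 4.89 over the 16 arrays, and 0 of 4 were called in either comparison. FSHR, the follicle-stimulating hormone receptor, read 3.42 ± 0.11 with LH+BMP6 and 3.50 ± 0.19 in control. HSD17B1 read 5.58 ± 0.29 with LH+BMP6, 5.47 ± 0.30 with BMP6, 6.08 ± 0.58 with LH and 6.33 ± 0.88 in control. Of the 4, 4 were below 0 with LH+BMP6 against LH, and 2 were below and 2 above with BMP6 against control.

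Some markers of other cell types were called in the same comparisons, most of them higher where the enzymes were lower. Over all probe sets, 9.99% were called higher with LH+BMP6 against LH and 8.12% with BMP6 against control. Of 6 leukocyte markers, 4 were higher with LH+BMP6 against LH (PTPRC, CD14, CD68 and CD3E) and 1 with BMP6 against control (CD14), with none lower. Their mean level per array was 6.87 to 7.25 with LH+BMP6, 6.61 to 7.20 with BMP6, 6.20 to 6.73 with LH and 6.50 to 6.66 in control. Of 6 pericyte and fibroblast markers 2 were higher and 1 lower with LH+BMP6 against LH, and 2 were higher with BMP6 against control. Their mean level was 9.33 to 9.67 with LH+BMP6, 9.40 to 9.73 with BMP6, 8.97 to 9.59 with LH and 9.04 to 9.49 in control. Endothelial markers (6) and red blood cell markers (3) had 0 members called by limma in either comparison, with at most 3 and 1 at an unadjusted p under 0.05. The part of cell makeup in the changes of the enzymes was not tested.

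SQLE, squalene epoxidase, puts an oxygen on squalene and is a rate-limiting step of the late pathway. Its log2 signal was 9.98, 9.19, 9.12 and 9.23 on the LH+BMP6 arrays, against 11.77, 11.25, 10.36 and 10.28 on the LH arrays (replicates 1 to 4). It was 9.94, 9.19, 8.95 and 8.85 on the BMP6 arrays, against 10.28, 10.48, 10.33 and 10.11 on the control arrays. The arrays with BMP6 all lay below those without it, while 2 LH arrays (replicates 3 and 4) lay inside the range of the controls. Group means were 9.38 ± 0.40 with LH+BMP6, 9.23 ± 0.49 with BMP6, 10.91 ± 0.72 with LH and 10.30 ± 0.15 in control (SD, n = 4). SQLE fell 2.89-fold with LH+BMP6 against LH (-1.53 ± 0.29, limma adjusted p = 0.00122). With BMP6 against control it fell 2.10-fold (-1.07 ± 0.29, limma adjusted p = 0.0163).

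LSS, lanosterol synthase, folds the epoxide into lanosterol, the earliest sterol of the pathway. Probe set 1 read 8.44, 7.86, 7.88 and 8.29 on the LH+BMP6 arrays, against 10.14, 9.58, 9.35 and 9.16 on the LH arrays. It read 8.28, 7.54, 7.58 and 7.61 on the BMP6 arrays, against 9.21, 9.29, 8.98 and 8.95 on the control arrays. The groups with BMP6 again lay wholly below those without it, and the LH and control arrays overlapped. LSS fell 2.71-fold with LH+BMP6 against LH (-1.44 ± 0.20, limma adjusted p = 8.59e-05) and 2.56-fold with BMP6 against control (-1.35 ± 0.20, limma adjusted p = 0.000166).

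The 3 probe sets of LSS did not all move. Probe set 2 fell alongside probe set 1, with a change of -1.42 ± 0.21 with LH+BMP6 against LH (limma adjusted p = 0.000118) and of -1.04 ± 0.21 with BMP6 against control (limma adjusted p = 0.00179). Its values were 5.97 to 6.43 with LH+BMP6 and 5.80 to 6.33 with BMP6, against 7.26 to 8.37 with LH and 6.83 to 7.41 in control. Probe set 3 read 4.54 to 5.00 on all 16 arrays, near the lower quartile of each array's probe sets (4.31 to 4.43). It was not called with LH+BMP6 against LH (-0.09 ± 0.10, limma adjusted p = 0.583) or with BMP6 against control (0.08 ± 0.10, limma adjusted p = 0.655). The sources used here do not say which transcripts each of the 3 detects.

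**Figure D1:**
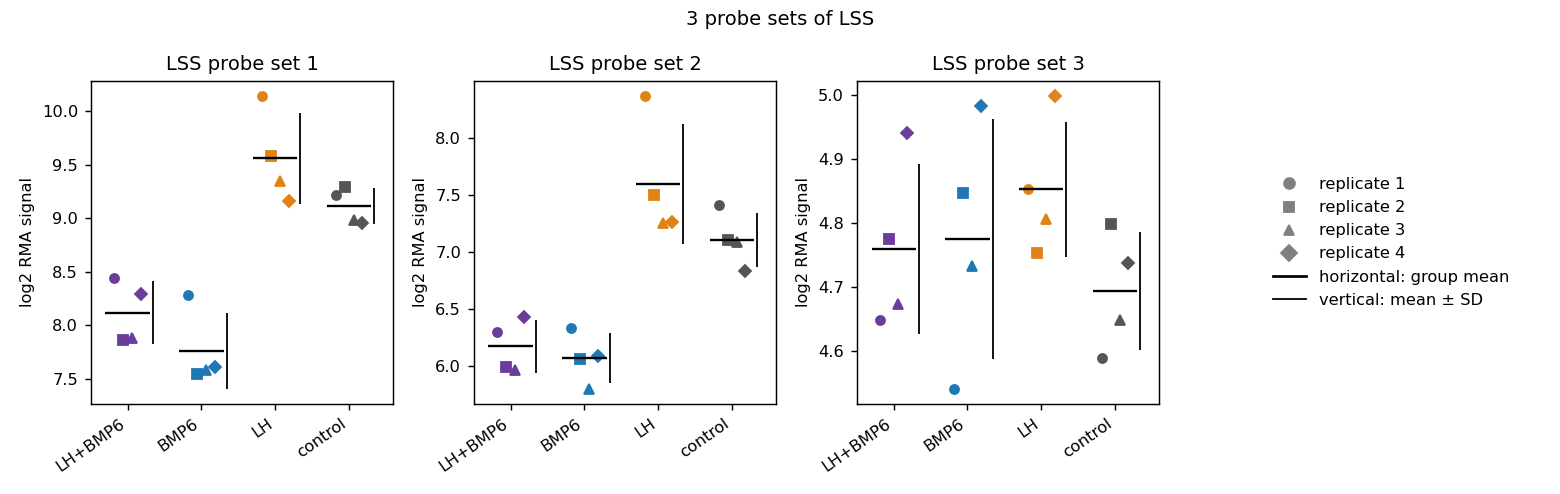
Log2 signal of the 3 probe sets of LSS on each array, with a panel and a scale for each probe set; symbols are replicate numbers, horizontal bars group means and vertical bars mean ± SD (n = 4). Probe sets 1 and 2 are lower with BMP6, with and without LH, while probe set 3 stays between 4.54 and 5.00.

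CYP51A1, the cytochrome P450 that removes a methyl group from lanosterol, read 9.32, 8.88, 8.54 and 8.63 on the LH+BMP6 arrays, against 11.44, 10.74, 9.86 and 10.00 on the LH arrays. The BMP6 arrays read 9.39, 8.96, 8.54 and 8.61, against 9.76, 10.01, 9.61 and 9.62 on the control arrays. No array with BMP6 reached the lowest array without it. CYP51A1 fell 3.18-fold with LH+BMP6 against LH (-1.67 ± 0.28, limma adjusted p = 0.000392). With BMP6 against control it had the smallest fall of the 5, 1.84-fold (-0.88 ± 0.28, limma adjusted p = 0.0347).

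TM7SF2, a sterol reductase that removes the double bond left by the CYP51A1 step, had the widest range. It read 5.97, 6.14, 5.88 and 5.82 on the LH+BMP6 arrays, against 10.15, 9.26, 7.71 and 7.73 on the LH arrays. On the BMP6 arrays it read 5.73, 6.07, 5.84 and 5.77, against 7.24, 7.57, 6.92 and 7.38 on the control arrays. All 8 arrays with BMP6 lay close together and low, the controls lay above them, and the LH arrays lay above the controls and far apart from each other. Its fall with LH+BMP6 against LH was 6.77-fold (-2.76 ± 0.38, limma adjusted p = 7.28e-05) and ranked 18 among the falls of all 24016 probe sets. With BMP6 against control it fell 2.69-fold (-1.43 ± 0.38, limma adjusted p = 0.0129).

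DHCR7, which reduces 7-dehydrocholesterol to cholesterol, read 8.41, 8.03, 7.84 and 7.95 on the LH+BMP6 arrays, against 10.83, 9.91, 9.24 and 9.16 on the LH arrays. It read 8.41, 7.87, 7.67 and 7.61 on the BMP6 arrays, against 8.82, 9.20, 8.93 and 8.77 on the control arrays. The groups with BMP6 did not overlap those without it, although the highest BMP6 array (8.41) came near the lowest control (8.77). DHCR7 fell 3.31-fold with LH+BMP6 against LH (-1.73 ± 0.28, limma adjusted p = 0.000289) and 2.06-fold with BMP6 against control (-1.04 ± 0.28, limma adjusted p = 0.0133).

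**Figure D2:**
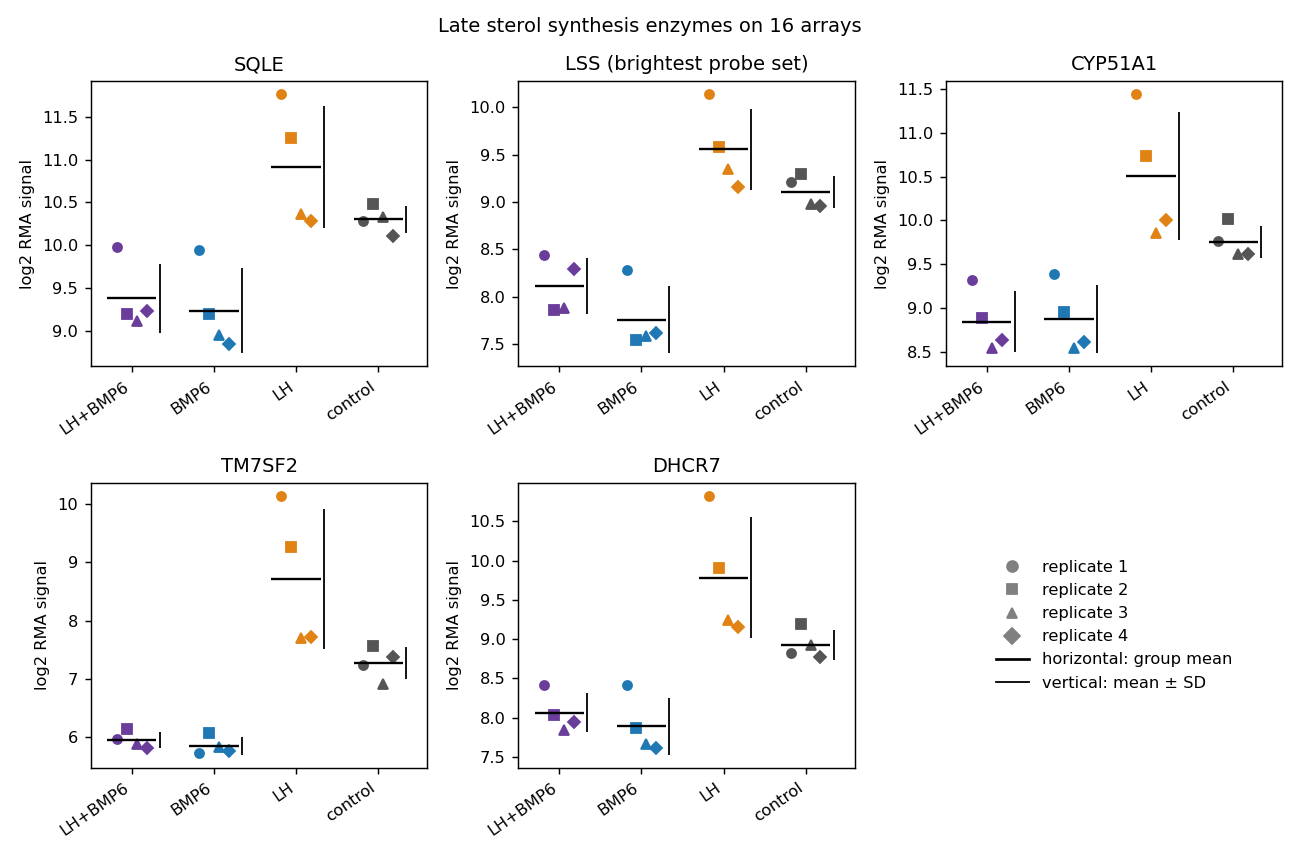
Log2 signal of the 5 enzymes on the 16 arrays, by group, with a scale for each gene; symbols are replicate numbers, horizontal bars group means and vertical bars mean ± SD (n = 4). The arrays with BMP6 lie below the arrays without it in each panel, and LH replicate 1 is the highest array in each.

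Counted together, 5 of 5 genes and 6 of 7 probe sets fell with LH+BMP6 against LH, where 10.3% of all probe sets were called lower. In 6 of 7 probe sets all 4 LH+BMP6 arrays lay below all 4 LH arrays, which held for 11.2% of all probe sets. The median change of the 5 genes was -1.67, beside -0.02 for all probe sets. With BMP6 against control, 5 of 5 genes and 6 of 7 probe sets fell, where 9.95% of all probe sets were called lower. In 6 of 7 probe sets the 4 BMP6 arrays lay below the 4 control arrays, as in 12.7% of all probe sets, and the median change of the 5 genes was -1.07, beside 0.01 for all probe sets. The share of all probe sets in which every array with BMP6 lay below every array without it is not given here.

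The falls with LH+BMP6 against LH were called for 5 of 5 genes in all 31 alternatives run, and those with BMP6 against control in 20 of 31. In that comparison LSS was called in 31 of the alternatives, TM7SF2 in 28, DHCR7 in 27, SQLE in 26 and CYP51A1 in 20. With a whole replicate number left out, 5 of 5 were called without replicate 1, 1 without replicate 2, 2 without replicate 3 and 1 without replicate 4. Among single arrays, the CYP51A1 call was lost without BMP6 replicate 2, 3 or 4 or control replicate 1, 2 or 4 (change -0.92 to -0.77, limma adjusted p from 0.0516 to 0.10). The SQLE call was lost without BMP6 replicate 4 (-0.94, limma adjusted p = 0.0595). When the 3 low-signal arrays were left out all 5 kept their calls, at -1.06 for SQLE, -1.37 for LSS, -0.94 for CYP51A1, -1.62 for TM7SF2 and -1.10 for DHCR7. With low signal as a term of the fit 1 of 5, LSS, was called (-1.19, limma adjusted p = 0.00205).

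The sizes of the falls were compared between the enzymes in 20 differences, and 0 of 20 had an adjusted p under 0.05. This test could not decide whether the falls differed in size, for the reason given at the end of the paragraph. In LH+BMP6 against LH the log2 change of SQLE minus that of TM7SF2 was 1.22 ± 0.32 (SE), that of LSS minus TM7SF2 1.32 ± 0.45, that of CYP51A1 minus TM7SF2 1.09 ± 0.29, and that of TM7SF2 minus DHCR7 -1.03 ± 0.27. Each of these differences had an exact two-sided permutation p = 0.0286, which is as low as 4 arrays against 4 can reach. In BMP6 against control LSS minus CYP51A1 was -0.47 ± 0.11, LSS minus DHCR7 -0.31 ± 0.10 and CYP51A1 minus TM7SF2 0.55 ± 0.24 (exact permutation p = 0.0286 each). The 20 differences are 10 pairs of genes in each of these comparisons, 7 of them had this p, and the smallest adjusted p was 0.0816. With only 7 at the lowest p that can be reached, adjustment over 20 tests keeps each above 0.05, however large the difference.

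**Figure D3:**
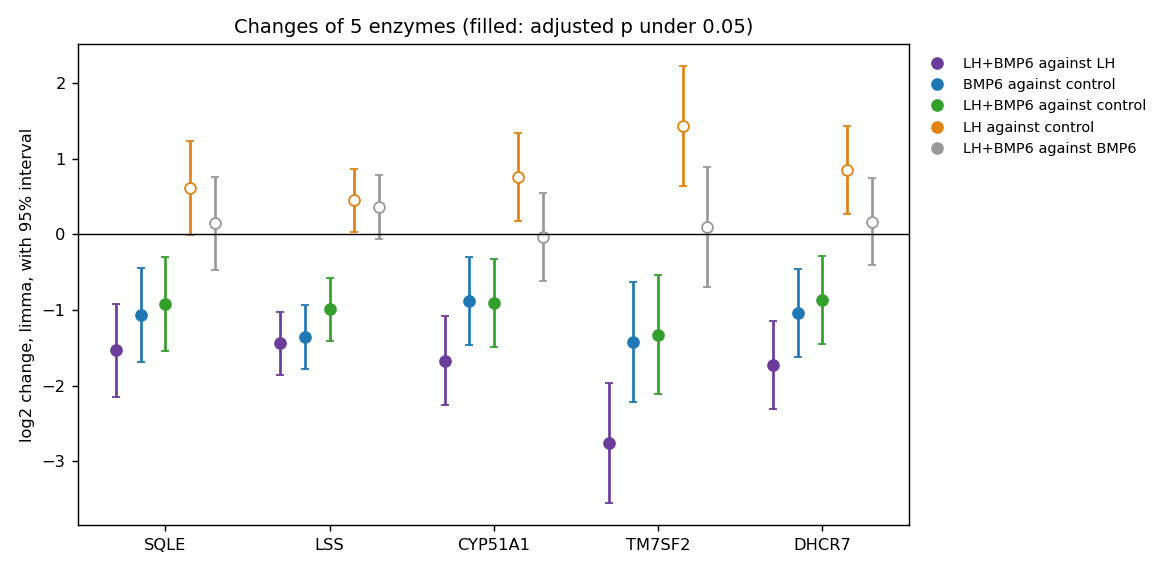
Change of each enzyme on the log2 scale in 5 comparisons, with limma's 95% interval; filled points had an adjusted p under 0.05. Changes that set BMP6 or LH+BMP6 against a group without BMP6 lie between -0.87 and -2.76 and are filled, and the 10 others are open.

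LH alone was set against control to ask what the hormone does without BMP6. The mean signal was higher with LH for all 5 enzymes, with a median difference of 0.76 beside 0.01 for all probe sets. The differences were 0.61 ± 0.29 for SQLE, 0.45 ± 0.20 for LSS, 0.76 ± 0.28 for CYP51A1, 1.43 ± 0.38 for TM7SF2 and 0.86 ± 0.28 for DHCR7. By limma 0 of 5 were called (adjusted p from 0.622 for TM7SF2 to 0.914 for SQLE), and 4 of 5 had an unadjusted p under 0.05, as did 1291 of all probe sets. Of all probe sets 0.0125% were called higher, which is 3 in number. With replicate number as a fixed block in the limma fit 0 of 5 were called too, at an adjusted p from 0.275 to 0.438. The unadjusted limma p then ran from 0.000251 for CYP51A1 to 0.00442 for LSS. With the low-signal arrays left out it ran from 0.0372 for TM7SF2 to 0.340 for SQLE. For TM7SF2 all 4 LH arrays (7.71 to 10.15) lay above all 4 control arrays (6.92 to 7.57), which held for 1.92% of probe sets, and its value ranked 6 among the differences above 0. The other 4 genes overlapped between the groups.

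The spread of the LH arrays was wide for these genes. Their SD over the 4 LH arrays was 0.43 to 1.20, with a median of 0.73 beside 0.14 for all probe sets. The SD was 0.14 to 0.40 with LH+BMP6, 0.15 to 0.49 with BMP6 and 0.15 to 0.27 in control. Its medians in these groups were 0.30, 0.37 and 0.19, beside 0.13, 0.13 and 0.12 for all probe sets. LH replicate 1 was the highest LH array for 5 of 5 genes, and it is 1 of the 3 arrays of low hybridisation-control signal. LH replicate 2, whose control signal was not low (9.96), ranked second among the LH arrays for 5 of 5. With each gene centred on its own mean, the 5 genes averaged 2.125, 1.41, 0.56 and 0.53 on LH replicates 1 to 4. Without LH replicate 1 the differences from control were 0.33 for SQLE, 0.25 for LSS, 0.45 for CYP51A1, 0.96 for TM7SF2 and 0.51 for DHCR7, with a median of 0.45.

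With all 3 low-signal arrays left out, the differences of LH from control were 0.33 for SQLE, 0.24 for LSS, 0.38 for CYP51A1, 0.76 for TM7SF2 and 0.45 for DHCR7. Within the low-signal arrays alone, which are 1 LH array and 2 control arrays and allow no test, TM7SF2 stood at 10.15 on the LH array and 7.08 on average in control. The other 4 genes differed there by 1.05 to 1.95. LH replicate 1 also had the highest LH signal of STAR, which carries cholesterol into mitochondria (11.47, against 9.34 to 9.49 on the other LH arrays). The part of array quality in these values was not tested. Among arrays of the other groups, replicate 1 was the highest for 4 of 5 genes with LH+BMP6 and with BMP6, and control replicate 2 was the highest control for 5 of 5.

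LH+BMP6 was set against BMP6 to ask what LH adds when BMP6 is present. By limma 0 of 5 genes were called, with adjusted p = 1.00 for each, where 0% of all probe sets were called in either direction. At an unadjusted p under 0.05 there were 0 of 5 genes and 471 of all probe sets. The changes were 0.15 ± 0.29 for SQLE, 0.36 ± 0.20 for LSS, -0.03 ± 0.28 for CYP51A1, 0.10 ± 0.38 for TM7SF2 and 0.17 ± 0.28 for DHCR7. The 95% interval for TM7SF2 ran from -0.69 to 0.89 and that for LSS from -0.06 to 0.78.

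The interaction asks whether the effect of LH differed with and without BMP6. By limma 0 of 5 genes were called, where 0% of all probe sets were called in either direction. In the main fit TM7SF2 alone of the 5 had an unadjusted p under 0.05, as did 773 of all probe sets. The unadjusted limma p of CYP51A1, TM7SF2 and DHCR7 was 0.00317, 0.0114 and 0.0255 with the replicate block as a fixed term. It was 0.0300, 0.0115 and 0.0398 with low signal as a term, and 0.276, 0.138 and 0.396 with the low-signal arrays left out. None of these fits called a gene of the 5. The change of TM7SF2 with LH was lower in the presence of BMP6 (-1.33 ± 0.53, adjusted p = 1.00), at -0.85 without LH replicate 1. The values of the others were -0.79 ± 0.39 for CYP51A1, -0.69 ± 0.39 for DHCR7, -0.47 ± 0.41 for SQLE and -0.09 ± 0.28 for LSS. Without LH replicate 1 they were -0.48 for CYP51A1, -0.34 for DHCR7, -0.18 for SQLE and 0.11 for LSS, so that LSS changed sign.

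With LH+BMP6 against control, 5 of 5 genes fell, where 10.1% of all probe sets were called lower, with a median change of -0.92. LSS fell 1.99-fold (-0.99 ± 0.20, limma adjusted p = 0.00204) and TM7SF2 2.50-fold (-1.32 ± 0.38, limma adjusted p = 0.0195). The changes of CYP51A1 (-0.91), SQLE (-0.92) and DHCR7 (-0.87) had limma adjusted p from 0.0279 to 0.0346. The calls of SQLE and DHCR7 were each lost without LH+BMP6 replicate 2, 3 or 4 or control replicate 1, 2 or 3 (limma adjusted p from 0.0597 to 0.0977). That of CYP51A1 was lost without LH+BMP6 replicate 2, 3 or 4 or control replicate 1 or 2 (limma adjusted p from 0.0526 to 0.0863), and that of TM7SF2 without control replicate 2 (-1.23, limma adjusted p = 0.0580).

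The other late enzymes moved in the same direction. Of 6 listed, the annotation named 3: MSMO1, a sterol methyl oxidase, NSDHL, a sterol dehydrogenase, and EBP, which shifts a double bond of the sterol. All 3 fell with LH+BMP6 against LH, with changes of -1.41 ± 0.20, -1.62 ± 0.28 and -1.18 ± 0.19 in that order. All 3 fell with BMP6 against control too, with a median of -0.88. Among all probe sets, 10.3% were called lower with LH+BMP6 against LH and 9.95% with BMP6 against control. With LH against control 0 of 3 were called, with a median of 0.58 and 3 at an unadjusted p under 0.05.

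Upstream of squalene, 7 of 9 listed enzymes were measured. All 7 fell with LH+BMP6 against LH, with a median of -1.06, where 10.3% of all probe sets were called lower. With BMP6 against control 3 of 7 fell, with a median of -0.54, where 9.95% of all probe sets were called lower. The 3 were MVK (-0.71 ± 0.17, limma adjusted p = 0.00626) and MVD (-0.54 ± 0.16, limma adjusted p = 0.0252), enzymes of the mevalonate steps, and FDPS, which makes farnesyl diphosphate (-0.88 ± 0.27, limma adjusted p = 0.0294). With LH against control 0 of 7 were called by limma, with a median of 0.61 and 6 at an unadjusted p under 0.05. Whether the late enzymes fell more than the early ones was not tested.

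**Figure D4:**
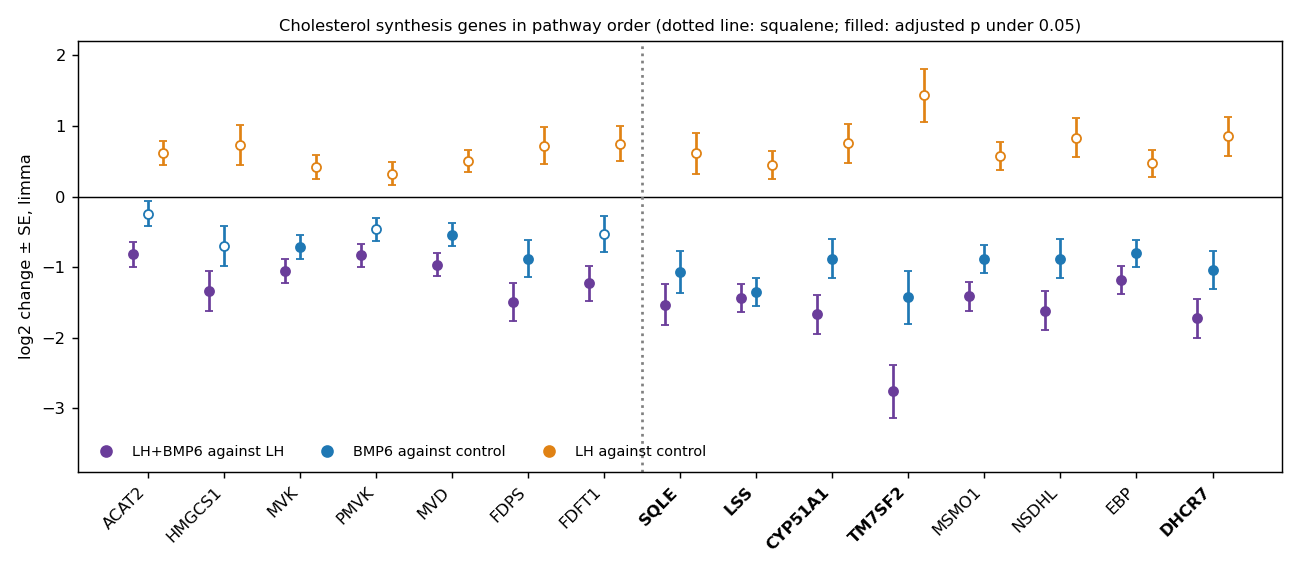
Change ± SE on the log2 scale of the 15 measured cholesterol synthesis genes in the order of the pathway, with the 5 enzymes in bold; filled points had an adjusted p under 0.05. All 15 are filled and below 0 with LH+BMP6 against LH, and all 15 are above 0 and open with LH against control.

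Genes that pass electrons to the late enzymes did not all move. CYB5R3, cytochrome b5 reductase, fell with LH+BMP6 against LH (-1.29 ± 0.12, limma adjusted p = 1.75e-06) and with BMP6 against control (-1.38 ± 0.12, limma adjusted p = 8.91e-07). CYB5A, cytochrome b5, fell with LH+BMP6 against LH (-0.59 ± 0.13, limma adjusted p = 0.00447) and was not called with BMP6 against control (-0.36 ± 0.13, limma adjusted p = 0.0804). POR, the reductase that serves SQLE and CYP51A1, was called in neither (-0.21 ± 0.09 and -0.10 ± 0.09, limma adjusted p = 0.115 and 0.544). LBR, whose reductase domain carries out the same reaction as TM7SF2, was not among the named genes.

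Of 7 genes of sterol sensing, 4 fell and none rose with LH+BMP6 against LH, and 3 fell and none rose with BMP6 against control. The shares of all probe sets called lower were 10.3% and 9.95% in that order, and those called higher 9.99% and 8.12%. SREBF2, which encodes SREBP-2, fell with LH+BMP6 against LH (-0.87 ± 0.15, limma adjusted p = 0.000416) and with BMP6 against control (-0.55 ± 0.15, limma adjusted p = 0.0129). SCAP, which escorts SREBP-2 out of the endoplasmic reticulum, fell in the same comparisons (-0.79 ± 0.11 and -0.87 ± 0.11, limma adjusted p = 9.40e-05 and 4.63e-05). MBTPS2, a protease that releases SREBP-2, fell in both as well (-0.44 ± 0.11 and -0.34 ± 0.11, limma adjusted p = 0.00759 and 0.0337). INSIG1, which holds SCAP back, fell with LH+BMP6 against LH (-1.06 ± 0.29, limma adjusted p = 0.0151) and was not called with BMP6 against control (-0.57 ± 0.29, limma adjusted p = 0.202). SREBF1 was called in neither (-0.37 ± 0.13 and -0.31 ± 0.13, limma adjusted p = 0.0633 and 0.128).

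Uptake genes moved both ways. With LH+BMP6 against LH, 4 of 6 measured rose and 1 fell, and with BMP6 against control 1 rose and 1 fell. Of all probe sets 9.99% and 8.12% were called higher in these comparisons, and 10.3% and 9.95% lower. MYLIP, a ubiquitin ligase that limits lipoprotein uptake, rose by 1.01 ± 0.14 with LH+BMP6 against LH (limma adjusted p = 6.84e-05) and by 0.74 ± 0.14 with BMP6 against control (limma adjusted p = 0.00108). SCARB1, a receptor for lipoprotein cholesterol, fell (-1.33 ± 0.15 and -0.72 ± 0.15, limma adjusted p = 1.35e-05 and 0.00279). LIPA, a lysosomal lipase, rose with LH+BMP6 against LH (0.58 ± 0.15, limma adjusted p = 0.0114).

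Among 5 measured genes of efflux and storage, 1 fell in each of these comparisons, a share that 1 gene in a short list cannot set apart from the 10.3% and 9.95% of all probe sets. It was APOE, a lipoprotein component (-0.80 ± 0.15 with LH+BMP6 against LH and -0.87 ± 0.15 with BMP6 against control, limma adjusted p = 0.00123 and 0.000757). Of 7 steroidogenic genes, 6 fell and 1 rose with LH+BMP6 against LH, and 5 fell and 1 rose with BMP6 against control. CYP11A1, which makes pregnenolone from cholesterol, fell in both (-2.61 ± 0.16 and -2.21 ± 0.16 in that order, limma adjusted p = 3.69e-08 and 1.58e-07). NR5A1, a transcription factor of steroidogenic cells, also fell (-1.67 ± 0.10 and -1.55 ± 0.10, limma adjusted p = 2.64e-08 and 2.91e-08). HSD3B1, which converts pregnenolone to progesterone, fell too (-2.73 ± 0.25 and -2.33 ± 0.25, limma adjusted p = 1.69e-06 and 8.96e-06). CYP11A1, NR5A1, HSD3B1, STAR and CYP17A1 were also counted among the theca markers, so the counts of these lists overlap.

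Profiles were compared as a description, by the root mean square difference of the centred log2 signals over the 16 arrays, which share the treatments, among 9154 other genes. The genes most like SQLE were CYP51A1 (0.145), FDPS (0.148) and DHCR7 (0.155), where the median over all genes was 0.810. The nearest to LSS were MSMO1 (0.190), MMAB, an enzyme of vitamin B12 metabolism (0.221), and RESF1 (0.223). CYP51A1 was nearest to FDPS (0.108), NSDHL (0.125) and DHCR7 (0.135), and DHCR7 to NSDHL (0.0988), CYP51A1 (0.135) and SQLE (0.155).

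TM7SF2 stood farther from all others by this measure, which grows with the size of a gene's own differences between arrays. The root mean square of its own centred profile was 1.28, against 0.806 for SQLE, 0.780 for LSS, 0.797 for CYP51A1 and 0.854 for DHCR7. For each enzyme the median over all genes lay close to this size. The nearest genes to TM7SF2 were RGN, regucalcin (0.471), DHCR7 (0.518) and CYP11A1 (0.540), where the median over all genes was 1.28. RGN, like TM7SF2, fell with LH+BMP6 against LH (-3.42 ± 0.54, limma adjusted p = 0.000286), but it was not called with BMP6 against control (-0.81 ± 0.54, limma adjusted p = 0.358). Among the 25 genes closest to each enzyme, listed genes of cholesterol synthesis numbered 10 for SQLE, CYP51A1 and DHCR7, 7 for LSS and 6 for TM7SF2. These counts include others of the 5 enzymes, 4 for TM7SF2 and 3 for each of the rest. The list holds 15 measured genes, the enzymes included, of the 9155 named, and was chosen with earlier results of these data known.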

How the data were processed

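The arrays were read as the table of log2 signals that the authors deposited, made with RMA in Affymetrix Expression Console per the submitters' processing notes, in a version not given in the sources used here. RMA corrects background, quantile-normalizes the arrays and summarises probes, so it hides differences in total RNA and compresses folds of dim probe sets. No further normalization or filter was applied, and every value column was used (0 unused). The table holds 24128 probe sets, of which 112 are Affymetrix controls and were not tested. GEO's platform annotation gave 1 symbol to 13292 probe sets, several to 86 and none to 10638, and 13263 were matched by Entrez identifier, which changed 0 symbols. A gene is represented by its probe set with the highest mean signal.

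limma 3.58.1 (R 4.3.3) fitted 4 group coefficients to 16 arrays (lmFit, eBayes with an intensity trend), with Benjamini-Hochberg adjustment of p-values over 24016 probe sets in each of 6 comparisons. The number of arrays limits the precision. The procedure was tested on simulated data. Differences between changes of 2 enzymes were tested by exact permutation. Figures used Python 3.11.15 and matplotlib 3.10.9.

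The enzymes and all gene lists were chosen with earlier results of these data known. Named were all members, up to 3 called genes of a list by smallest adjusted p, a fixed set that includes SREBF1, SREBF2, INSIG1, LBR and POR, and the 3 genes most like each member. STAR and the marker genes were added after their values were seen. Alternatives were the variance prior, normalization, a filter on probe sets under the 40th percentile, the mean of a gene's probe sets, only the arrays compared, low-signal arrays left out or as a term, a replicate block, and each array or replicate number left out. Some genes of the lists are not reported here. No sequence tables or genome were used here, so no sequence or coordinate is given.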

Additional observations from a re-analysis of the deposited data

Results flagged for a closer look

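Over the 7 probe sets and 4 groups, 28 sets of 4 arrays were examined for an array far from the rest, by the gap to the nearest array divided by the range of the group. Chance gives about 1 such array in 20 groups, and 2 passed Dixon's 95% critical value. SQLE on LH+BMP6 replicate 1 (9.98, against 9.12 to 9.23 on the other 3 arrays) had a ratio of 0.866. LSS probe set 1 on BMP6 replicate 1 (8.28, against 7.54 to 7.61 on the other 3) had a ratio of 0.909. Both arrays were the highest of their group. Without the LH+BMP6 array, SQLE kept its calls against LH and against control, and without the BMP6 array LSS kept its call against control.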

How the results depend on the processing

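The number of the 5 enzymes called stayed at 5 with LH+BMP6 against LH in 31 of 31 alternatives, and at 0 with LH against control and LH+BMP6 against BMP6. With BMP6 against control it was 1 when low signal entered the fit as a term and 1 to 5 when an array or a replicate number was left out. Robust eBayes left 4, without CYP51A1 (adjusted p = 0.0551). With LH+BMP6 against control it was 1 with that term, 3 with robust eBayes and 1 to 5 in the leave-out fits. The cause was not tested. Differences near 0 changed sign: in LH+BMP6 against BMP6 the leave-out values ran from -0.054 to 0.38 for SQLE and from -0.19 to 0.14 for CYP51A1. The interaction of LSS probe set 1 ran from -0.27 to 0.14 in those fits and was 0.12 without the low-signal arrays. Over all probe sets, the calls of BMP6 against control numbered 4340, or 2660 without the 3 low-signal arrays, 2766 with the term, 2821 without replicate 3 and 2703 without replicate 4. Those of LH+BMP6 against control numbered 4635, and 2754 to 5517 over the alternatives, those of LH+BMP6 against LH 4879 and 2963 to 5706, and those of LH against control 3 and 0 to 6. Arrays of the same replicate number deviated together at r from 0.08 to 0.69 for LH+BMP6 and BMP6 (5 of 8 arrays correlated best with their own number), 0.09 to 0.27 for LH+BMP6 and LH (7 of 8), 0.02 to 0.32 for LH and control (5 of 8), -0.11 to 0.15 for BMP6 and control (4 of 8) and -0.04 to 0.09 for LH+BMP6 and control (3 of 8). In none of these comparisons was r over 0.1 for all 4 pairs. With the replicate block as a fixed term, 5 of 5 enzymes were called with BMP6 against control and with LH+BMP6 against LH, 0 of 5 with LH against control, and 5202 probe sets in all with BMP6 against control. No background level was estimated, so LSS probe set 3, and TM7SF2 with BMP6, may lie where folds are compressed.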
